A study of Mus musculus with 6 samples.

Results

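The cadherin superfamily genes described here are the classical and atypical cadherins and the protocadherins of mouse cortical neurons whose Cugbp1 was knocked down. They were all genes whose symbol in the array's gene annotation begins with Cdh and a digit or with Pcdh, counted over probe sets (groups of probes for 1 stretch of exon) that the annotation gives to a single gene. This gave 85 of the 22076 annotated genes. Of these, 72 had at least 3 probe sets above the filter on low signal, a log2 value of 5.73, and were tested among 16532 genes. The other 13 had 1 or 2 such probe sets and are given separately. A further 9 symbols of the family, such as Pcdha10 and Pcdhgc5, stood only on probe sets shared with other genes and have no value of their own.

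The study compared neurons that received a lentivirus with a short hairpin RNA (shRNA) against mouse Cugbp1 with neurons that received a control shRNA, with 3 arrays in each group. Cugbp1, now named Celf1, is an RNA-binding protein with roles in mRNA splicing, decay and translation. All 6 cultures were cortical neurons from C57BL/6 embryos at embryonic day 15, with the meninges removed and the mitotic inhibitor AraC added on day 2. They were exposed to virus on day 5 for 4 h and harvested on day 11, and their total RNA was hybridised to exon arrays. The shRNA acts in every infected cell of the culture, glia included, and 1 shRNA against Cugbp1 is named. The labels are not uniform. The treatment text of replicates 2 and 3 names shRNAs against Tdp-43 in place of Cugbp1, and the design text calls the cells motor neurons. Celf1 itself measured 9.59, 9.40 and 9.33 in Cugbp1 shRNA neurons, against 10.85, 10.79 and 10.75 in control neurons, a log2 difference of -1.36 (SE 0.099, adjusted p = 0.0124), and was lower in 3 of 3 replicates. Tardbp, the gene of Tdp-43, had a difference of -0.035 (SE 0.16, adjusted p = 0.961). Nothing in the labels says whether the replicates came from separate dissections, so the p-values measure the spread between these arrays.

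Classical cadherins are calcium-dependent adhesion proteins that bind the same or related cadherins on the next cell and hold the actin cytoskeleton through beta-catenin and alpha-catenin. Non-clustered protocadherins of the delta group adhere more weakly, lack the catenin-binding tail and act in axon growth, sorting and synapse maintenance. The clustered protocadherins are encoded in 3 neighbouring clusters, alpha, beta and gamma. Each neuron expresses its own combination of them from separate promoters, and the combination lets a neuron tell its own branches from those of others.

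Of the 72 measured genes, 3 fell with Cugbp1 shRNA at a limma adjusted p under 0.05 and 0 rose: Cdh12, Pcdhb12 and Pcdhb9. That is a share of 4.17%, beside 3.94% of all genes called in either direction with 1.09% called higher and 2.85% called lower, so the share of calls in the family was near that of all genes. Deviations from the group means correlated within each replicate number, over all genes (0.76, 0.50 and 0.71) and over the family (0.78, 0.24 and 0.60). No correlation between unlike numbers is given, so these values cannot show that replicates 2 and 3 pair by number. Calls from a fit with the replicate number rest on that pairing. Fitting the replicate number as a blocking term (the block, below) called 23 family genes, 6 higher and 17 lower. Those are 31.9% of the family, beside 23.2% of all genes with the block, 9.34% higher and 13.9% lower. The median log2 difference of the family was -0.038, beside -0.015 over all genes tested, and its range ran between -0.81 and 0.54. The mean was lower with Cugbp1 shRNA for 45 of the 72 genes, 62.5%, beside 53.5% of all genes, and higher for 27, beside 46.5%. At an unadjusted p under 0.05, 6 family genes were higher and 15 lower, beside 7.51% and 11.3% of all genes. All 3 Cugbp1 shRNA arrays lay below all 3 control arrays for 17 genes and above them for 9, together 36.1% of the family. Over all genes tested these shares were 14.4% below, 10.8% above and 25.2% together. In RNA from whole cultures, fewer cells of a type and less RNA per cell cannot be told apart.

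**Figure D1:**
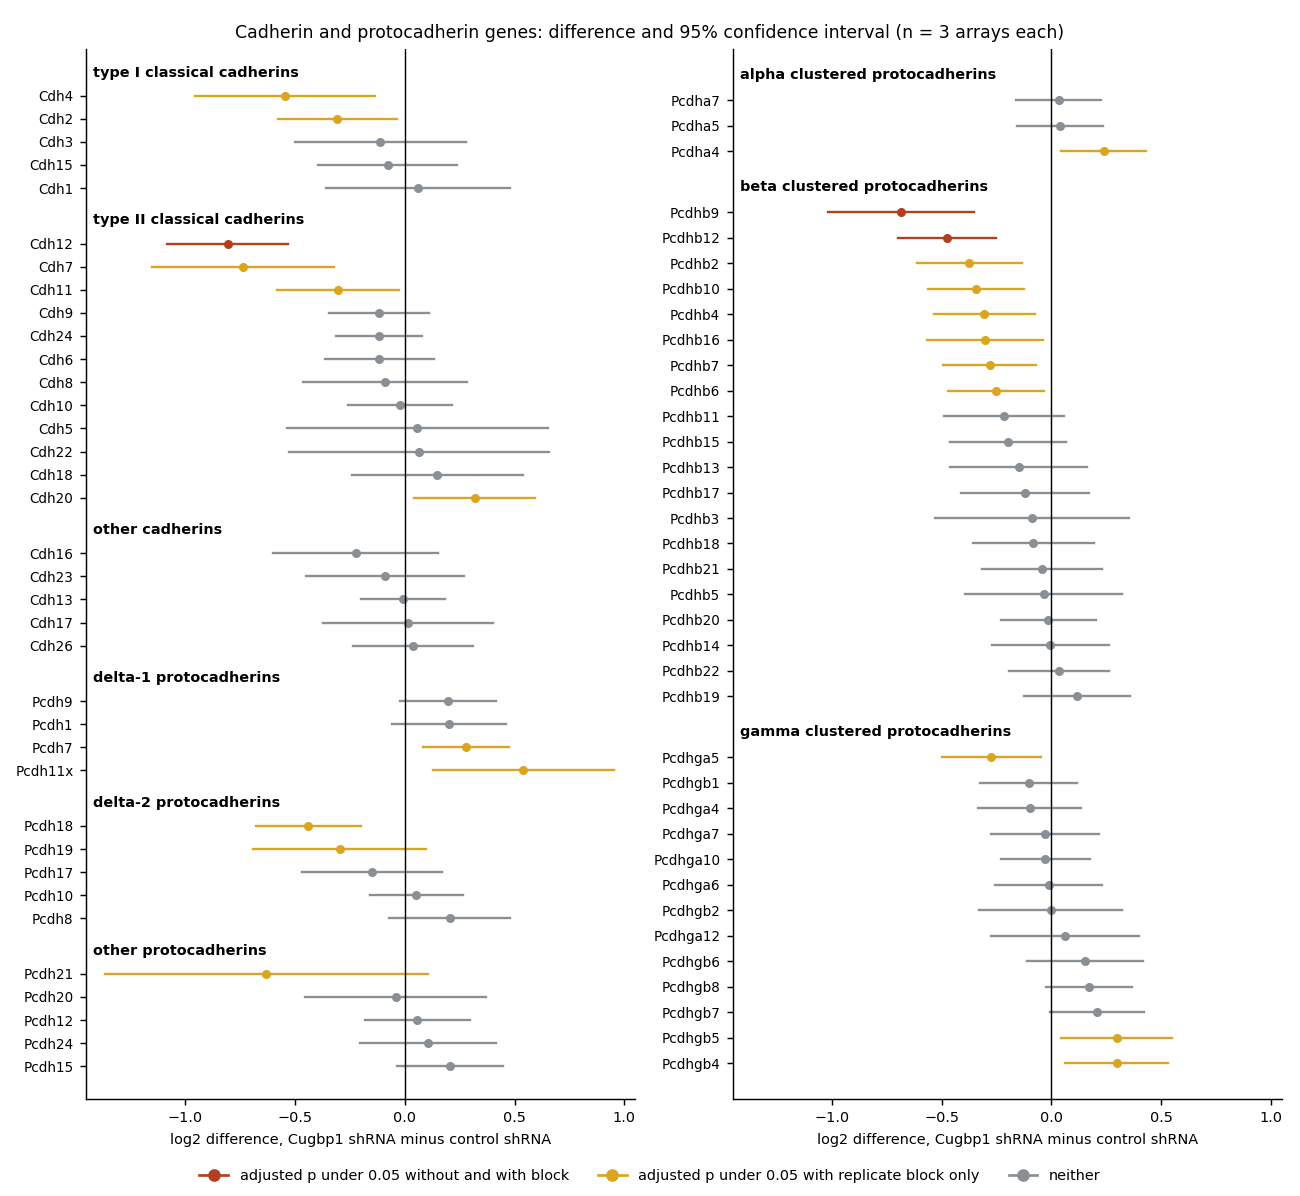
Log2 difference (Cugbp1 shRNA minus control shRNA) of each of the 72 measured genes by subfamily, 1 point a gene with its 95% confidence interval as a line, from 3 arrays in each group. Colour marks the genes called at an adjusted p under 0.05 without or with the replicate block. The 20 beta protocadherins lie mostly below 0, with a median of -0.17, and the 4 delta-1 protocadherins all lie above 0.

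The 4 promoters below are shown because they belong to the genes outside the clusters that were called or came nearest to the threshold. Cdh12 was called. Cdh7 and Pcdh18 were lower, and were called with the block and under some other settings given at the end. Pcdh7 was higher and was called only with the block. Each run is the 250 bases before the gene's annotated start in RefSeq, build GRCm38.p6, written 5′ to 3′ on the gene's own strand. Capitals mark an E-box of the kind that Snail, Slug and Zeb repressors bind in the E-cadherin promoter (CAGGTG or CACCTG), or a GC box of Sp1 type (GGGCGG or CCGCCC). These letters were searched on both strands. The E-box and the GC box can share an end base, and no run shown holds both.
Cdh12 promoter, chr15:21111202-21111451, plus strand: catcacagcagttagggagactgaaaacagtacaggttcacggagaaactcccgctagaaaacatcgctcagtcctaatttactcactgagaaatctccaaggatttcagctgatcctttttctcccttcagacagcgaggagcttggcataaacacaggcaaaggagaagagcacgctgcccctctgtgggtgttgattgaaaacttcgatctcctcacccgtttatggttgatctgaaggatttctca
Cdh7 promoter, chr1:109982650-109982899, plus strand: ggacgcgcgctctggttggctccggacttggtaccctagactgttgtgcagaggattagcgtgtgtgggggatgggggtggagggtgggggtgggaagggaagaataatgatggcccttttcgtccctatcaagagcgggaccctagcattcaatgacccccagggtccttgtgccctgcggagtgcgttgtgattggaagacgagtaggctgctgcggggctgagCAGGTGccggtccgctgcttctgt
Pcdh18 promoter, chr3:49757317-49757566, minus strand: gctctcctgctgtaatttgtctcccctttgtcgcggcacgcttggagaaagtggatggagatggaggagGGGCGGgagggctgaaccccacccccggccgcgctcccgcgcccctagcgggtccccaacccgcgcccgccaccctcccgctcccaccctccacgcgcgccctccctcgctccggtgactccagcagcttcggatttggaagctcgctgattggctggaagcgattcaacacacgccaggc
Pcdh7 promoter, chr5:57717831-57718080, plus strand: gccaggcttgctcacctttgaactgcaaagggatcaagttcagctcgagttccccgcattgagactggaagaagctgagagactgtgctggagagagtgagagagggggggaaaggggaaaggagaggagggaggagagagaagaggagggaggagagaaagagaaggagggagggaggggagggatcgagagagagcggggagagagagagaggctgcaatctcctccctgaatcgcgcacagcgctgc
The Cdh7 run is for the first of 3 listed starts. It holds 1 E-box and the Pcdh18 run 1 GC box, while these letters are not in the Cdh12 and Pcdh7 windows. GC content was 46.8% in the Cdh12 window, 60.8% for Cdh7, 68.0% for Pcdh18 and 58.4% for Pcdh7. Promoters were matched for 24 family genes. Of these, 3 held the E-box, 12.5%, beside 19.4% of 27025 genes with a promoter of the same length, and 9 held the GC box, 37.5%, beside 35.4%. Promoters of the 3 protocadherin clusters and of Cdh2, Pcdh1 and Pcdh12 were not analysed here. Some further family genes had no matched promoter and are also left out. A match describes the letters and is not evidence of binding.

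Type II classical cadherins, which differ from type I in their adhesive interface and are expressed in patterns that mark neuronal groups, held the family's lowest difference. Of 12 measured, 1 fell, 8 had a lower mean and 4 a higher one, and with the block 3 were called lower and 1 higher. Over all genes, 2.85% were called lower, 53.5% had a lower mean and, with the block, 13.9% were called lower and 9.34% higher. The median of the 12 was -0.10. It moved to -0.034 without control replicate 2, and to -0.066 when Cugbp1 shRNA replicate 2 was left out. With probe-set means it was -0.052, and 6 were lower and 6 higher. Cdh12, a type II cadherin of brain, measured 8.80, 8.89 and 8.71 in Cugbp1 shRNA neurons, against 9.58, 9.81 and 9.44 in control neurons. The lowest control array was 0.54 above the highest Cugbp1 shRNA array. The means were 8.80 ± 0.091 with Cugbp1 shRNA and 9.61 ± 0.19 in control neurons (SD, n = 3 each). The log2 difference of -0.81 (SE 0.12, 95% interval -1.08 to -0.53) is a level of 57.2% of control, with an adjusted p of 0.0199, or 0.00248 with the block. All 16 of its probe sets had a lower mean with Cugbp1 shRNA. Leaving out any 1 of the 6 arrays gave differences of -0.85 to -0.67 and ended the call, with adjusted p between 0.0509 and 0.170. With both arrays of replicate 1 left out, the call remained (-0.82, adjusted p = 0.0482).

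Cdh7, another type II cadherin, measured 7.57, 8.03 and 7.74 in Cugbp1 shRNA neurons, against 8.23, 8.82 and 8.49 in control neurons. The groups did not overlap, and replicate 1 was the lowest of both groups. Its difference of -0.74 (SE 0.18, 60.0% of control) missed the threshold with an adjusted p of 0.0669 and passed it with the block at 0.00248, and 28 of its 30 probe sets were lower. Cdh11, which is also known from bone and mesenchyme, measured 10.85, 11.09 and 11.03 in Cugbp1 shRNA neurons, against 11.14, 11.48 and 11.27 in control neurons, groups that only just did not overlap: the lowest control array lay 0.048 above the highest Cugbp1 shRNA array. Its difference was -0.30 (SE 0.12, adjusted p = 0.220, 0.0181 with the block), with all 19 probe sets lower, and it was -0.20 without control replicate 2. Cdh20 was the type II cadherin called higher with the block, at 9.59, 9.97 and 9.81 in Cugbp1 shRNA neurons, against 9.41, 9.57 and 9.44 in control neurons (difference 0.32, SE 0.12, adjusted p = 0.198, 0.0214 with the block). Cdh8 had a difference of -0.091 with SE 0.16 (adjusted p = 0.863), and its sign turned under some settings.

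Type I classical cadherins are the strongly adhesive members, and N-cadherin, encoded by Cdh2, is the main one of neurons and their progenitors. Of 5 measured, 4 had a lower mean, beside 53.5% of all genes, and 0 were called. With the block 2 were called lower, beside 13.9% of all genes. The median of the 5 was -0.11. That median depended on single arrays: leaving out replicate 1 or 3 of the Cugbp1 shRNA arrays gave -0.015 or -0.18, and leaving out replicate 1, 2 or 3 of the control arrays gave -0.22, -0.068 or -0.0075. Cdh2 measured 11.24, 11.50 and 11.46 in Cugbp1 shRNA neurons, against 11.58, 11.87 and 11.68 in control neurons, with all Cugbp1 shRNA arrays below all control arrays. Its difference was -0.31 (SE 0.12, 95% interval -0.58 to -0.036, adjusted p = 0.207, 0.0184 with the block), and 21 probe sets were lower and 6 higher. It was -0.18 without Cugbp1 shRNA replicate 1 and likewise -0.18 without control replicate 2. R-cadherin, encoded by Cdh4 and known from the developing brain and retina, measured 9.00, 9.54 and 9.54 in Cugbp1 shRNA neurons, against 9.68, 9.97 and 10.06 in control neurons. Again the groups did not overlap, though Cugbp1 shRNA replicate 1 lay far below the other two of its group. Its difference was -0.54 (SE 0.18, adjusted p = 0.146, 0.00537 with the block), and 21 of 22 probe sets were lower.

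The other 5 cadherins held none called, with or without the block, and 0 of 5 had groups that did not overlap. Cdh13 encodes T-cadherin, which has a glycolipid anchor in place of a membrane-spanning tail. It measured 11.78, 11.89 and 11.85 in Cugbp1 shRNA neurons, against 11.84, 11.84 and 11.87 in control neurons. Its difference was -0.0071 with a 95% interval of -0.20 to 0.18, the 6 arrays lay within 0.11 of each other, and the sign turned under several settings. Cdh16, a cadherin known from kidney, had a difference of -0.22 (SE 0.16, adjusted p = 0.556) and turned its sign with a stricter filter.

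**Figure D2:**
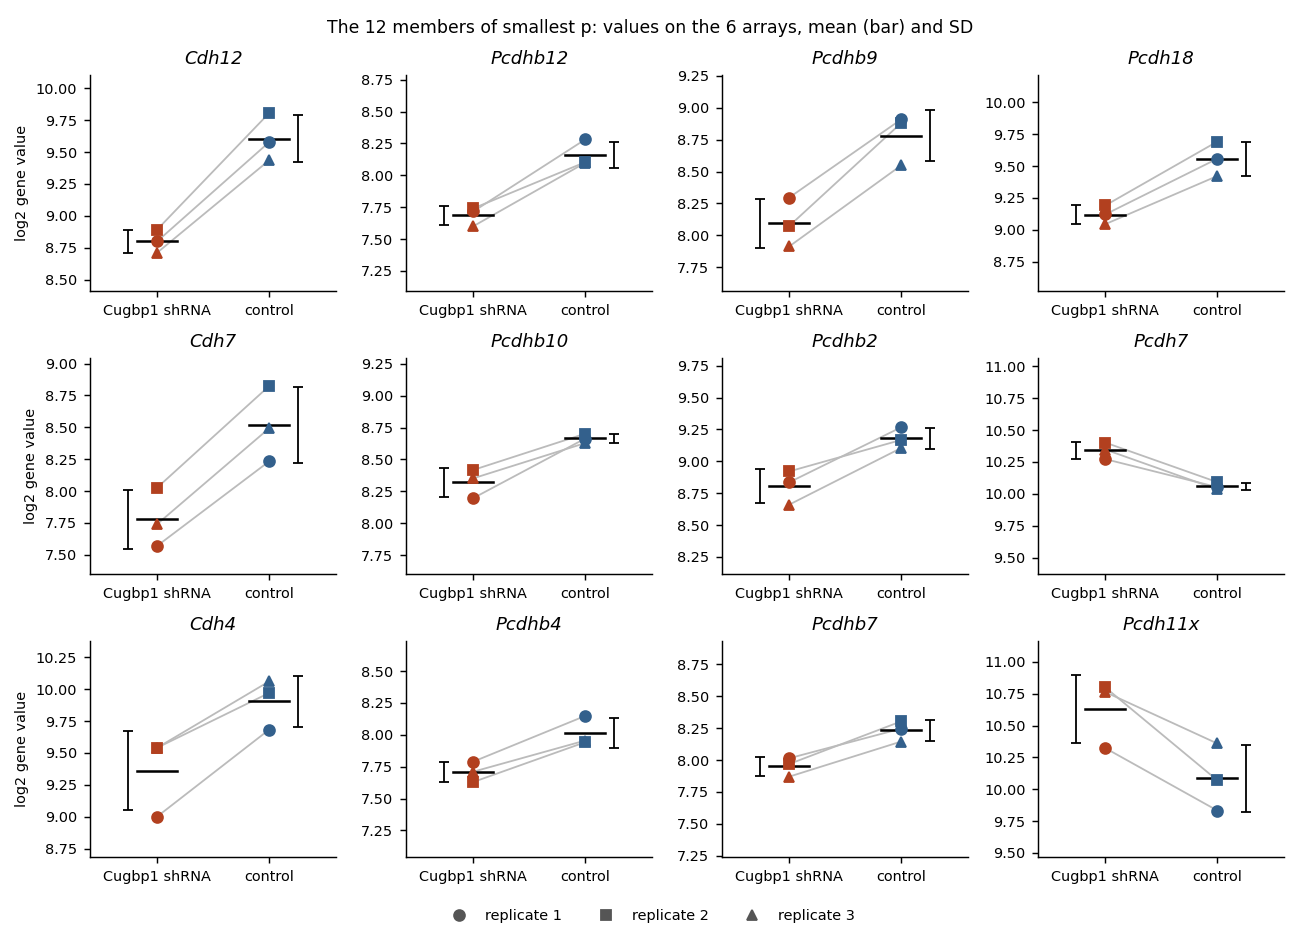
Log2 gene value on each of the 6 arrays for the 12 family genes with the smallest p, 1 panel a gene, with Cugbp1 shRNA on the left and control shRNA on the right. Lines join arrays with the same replicate number, horizontal bars mark group means and brackets the SD (n = 3 arrays each). Cdh12 lies between 8.71 and 8.89 with Cugbp1 shRNA and between 9.44 and 9.81 in control neurons.

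The delta-1 protocadherins carry conserved motifs in a long cytoplasmic tail, among them a site that binds protein phosphatase 1. All 4 measured genes had a higher mean with Cugbp1 shRNA, with a median of 0.24. None was called, and 2 were called higher with the block. Over all genes, 46.5% had a higher mean and 9.34% were called higher with the block. The median of the 4 gene values was 10.30, 10.60 and 10.55 on the Cugbp1 shRNA arrays, against 9.94, 10.08 and 10.20 on the control arrays. Pcdh11x, an X-linked protocadherin of brain, measured 10.32, 10.80 and 10.76 in Cugbp1 shRNA neurons, against 9.83, 10.07 and 10.36 in control neurons. Control replicate 3 overlapped Cugbp1 shRNA replicate 1, and within each replicate number the Cugbp1 shRNA array was higher, in 3 of 3. Its difference of 0.54 (SE 0.18, 145% of control) was the family's highest, with an adjusted p of 0.151, or 0.00746 with the block, and all 17 probe sets were higher. Pcdh7 measured 10.27, 10.40 and 10.35 in Cugbp1 shRNA neurons, against 10.05, 10.09 and 10.04 in control neurons, with no overlap. Its difference was 0.28 (SE 0.084, adjusted p = 0.120, 0.0204 with the block), and all 10 probe sets were higher. Pcdh9 had a difference of 0.20 (SE 0.093, adjusted p = 0.318, 0.0783 with the block) and Pcdh1 of 0.20 (SE 0.11, adjusted p = 0.408).

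Among the delta-2 protocadherins, whose tails can recruit the actin-regulating WAVE complex, 3 of 5 had a lower mean and 2 were called lower with the block, with 0 called without it. Over all genes, 53.5% had a lower mean and 13.9% were called lower with the block. Pcdh18 measured 9.12, 9.19 and 9.04 in Cugbp1 shRNA neurons, against 9.56, 9.69 and 9.42 in control neurons, groups that did not overlap. Its difference was -0.44 (SE 0.10, adjusted p = 0.0620, 0.00617 with the block) and all 8 probe sets were lower. Pcdh19, the X-linked gene mutated in a human epilepsy that affects mainly females, measured 9.70, 10.11 and 10.05 in Cugbp1 shRNA neurons, against 9.94, 10.42 and 10.40 in control neurons. These values overlap, with a difference of -0.30 (SE 0.17, adjusted p = 0.423, 0.0178 with the block). Pcdh10 had 11.37, 11.49 and 11.50 in Cugbp1 shRNA neurons, against 11.31, 11.46 and 11.43 in control neurons, a difference of 0.053 with a 95% interval of -0.16 to 0.27. Pcdh17 had a difference of -0.15 (SE 0.14, adjusted p = 0.666).

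The 5 remaining protocadherins fall outside the delta and clustered groups. Pcdh21, which RefSeq now names Cdhr1 and which is known from photoreceptors, measured 8.02, 8.89 and 8.92 in Cugbp1 shRNA neurons, against 8.68, 9.66 and 9.37 in control neurons. Replicate 1 was well below the other replicates in both groups, and Pcdh21 had the largest SD of the measured family genes in each group, 0.51 with Cugbp1 shRNA and 0.50 in control neurons. Its difference of -0.63 (SE 0.31) had an adjusted p of 0.351 without the block and 0.00480 with it, and 20 of 21 probe sets were lower. It was -0.27 without Cugbp1 shRNA replicate 1 and -0.43 without control replicate 2. Pcdh15, known from the tip links of inner-ear hair cells, had a difference of 0.20 (SE 0.10, adjusted p = 0.356, 0.0676 with the block).

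The beta protocadherins, each encoded by a single coding exon with its own promoter and without the constant exons of the other clusters, were the subfamily with the most genes lower. Of 20 measured, 2 fell, 18 had a lower mean, and 8 were called lower with the block and 0 higher. The groups did not overlap for 9 of 20, all with Cugbp1 shRNA below. Over all genes, 2.85% were called lower, 53.5% had a lower mean, 13.9% were called lower with the block and 14.4% had all Cugbp1 shRNA arrays below. The median difference was -0.17. The median of the 20 gene values was 8.26, 8.33 and 8.21 on the Cugbp1 shRNA arrays, against 8.53, 8.54 and 8.41 on the control arrays, with no overlap. Leaving out 1 array at a time moved the median difference between -0.20 and -0.074, with 14 to 18 of 20 lower, and the value nearest to 0 came without Cugbp1 shRNA replicate 3. With the filter at the 75th percentile 14 of 19 were lower, and with replicates 2 and 3 only 16 of 20. These genes are near-identical copies in part, so how far a probe set reads its neighbours is uncertain.

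Pcdhb12 measured 7.72, 7.74 and 7.60 in Cugbp1 shRNA neurons, against 8.28, 8.10 and 8.10 in control neurons. The lowest control array lay above the highest Cugbp1 shRNA array by 0.36. Its difference of -0.48 (SE 0.095, 95% interval -0.70 to -0.25) is 71.9% of control, with an adjusted p of 0.0418, or 0.00651 with the block. Pcdhb9 measured 8.30, 8.07 and 7.91 in Cugbp1 shRNA neurons, against 8.91, 8.88 and 8.55 in control neurons, also without overlap. Its difference was -0.69 (SE 0.14, 62.2% of control, adjusted p = 0.0450, 0.00305 with the block). All 6 probe sets of Pcdhb12 and all 7 of Pcdhb9 were lower. Leaving out any 1 array ended both calls. Pcdhb12 then had differences of -0.51 to -0.41 with adjusted p of 0.0758 to 0.191, and Pcdhb9 differences of -0.83 to -0.57 with adjusted p of 0.0760 to 0.230.

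Other beta genes had smaller differences in the same direction and, with the filter at the median, passed only with the block. With the filter at the 75th percentile, Pcdhb2 and Pcdhb7 were also called without the block. Pcdhb10 measured 8.20, 8.42 and 8.35 in Cugbp1 shRNA neurons, against 8.66, 8.70 and 8.63 in control neurons (difference -0.34, SE 0.093, adjusted p = 0.0938, 0.0164 with the block). Pcdhb2 measured 8.84, 8.92 and 8.66 in Cugbp1 shRNA neurons, against 9.27, 9.17 and 9.10 in control neurons (difference -0.37, SE 0.10, adjusted p = 0.0957, 0.0129 with the block). Neither gene's groups overlapped, and Pcdhb2 was -0.23 without Cugbp1 shRNA replicate 3. Pcdhb4 measured 7.79, 7.63 and 7.71 in Cugbp1 shRNA neurons, against 8.15, 7.94 and 7.96 in control neurons, where Cugbp1 shRNA replicate 1 came nearest to the control arrays (difference -0.31, SE 0.098, adjusted p = 0.146, 0.0163 with the block). Pcdhb7 measured 8.01, 7.97 and 7.87 in Cugbp1 shRNA neurons, against 8.25, 8.30 and 8.15 in control neurons, with all 9 probe sets lower (difference -0.28, SE 0.091, adjusted p = 0.147, 0.0201 with the block). Both of these genes had all Cugbp1 shRNA arrays below all control arrays. Pcdhb6 and Pcdhb16, the remaining genes called lower with the block, had differences of -0.25 and -0.30 (adjusted p = 0.196 and 0.203, and 0.0244 and 0.0248 with the block). Pcdhb20 had a difference of -0.013 (SE 0.092), whose sign turned under some settings. Along the cluster, in RefSeq's gene order, all of the first 10 measured beta genes (Pcdhb2 to Pcdhb12) had a lower mean, with a median of -0.29 and 7 called lower with the block. The last 10 (Pcdhb13 to Pcdhb22) had a median of -0.062, with 8 lower and 1 called with the block. This split was made after the values were seen and has no test.

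**Figure D3:**
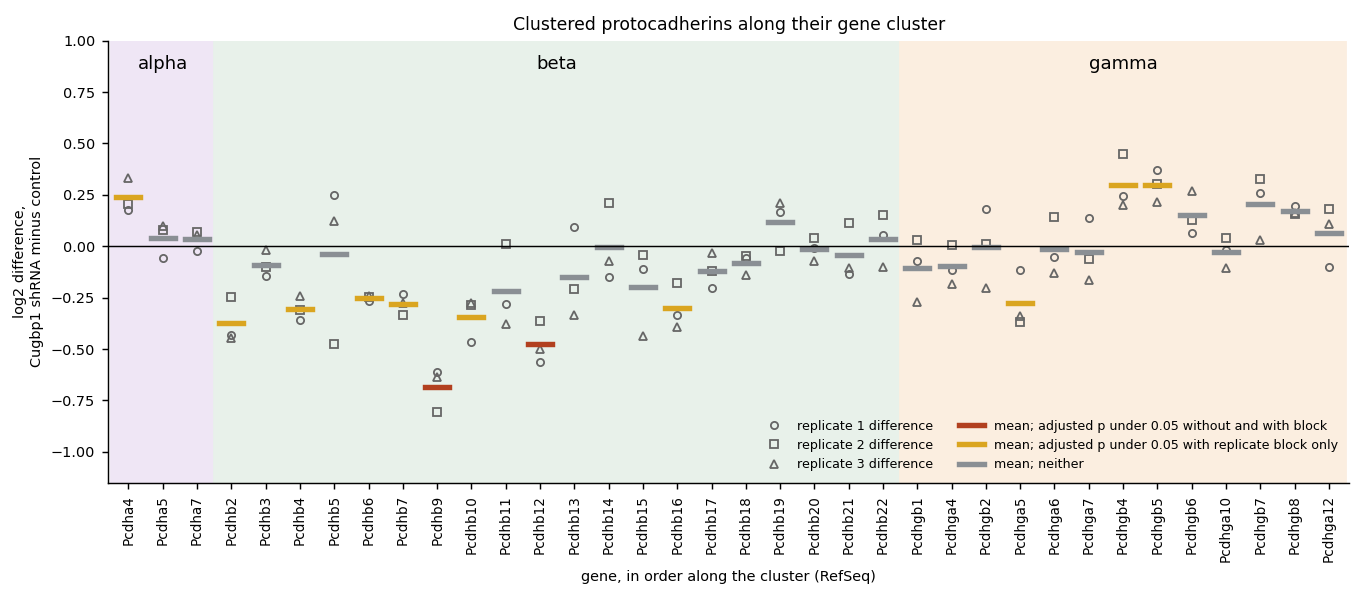
Log2 difference (Cugbp1 shRNA minus control shRNA) of the 36 measured clustered protocadherins, in their order along the cluster, with a bar for the mean, coloured by call, and an open symbol for the difference within each of the 3 replicate numbers. The lowest mean is that of Pcdhb9, and most of the later beta genes, from Pcdhb17 on, lie near 0.

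In the alpha and gamma clusters each variable first exon is spliced to constant exons that encode the shared cytoplasmic tail. The 3 measured alpha genes all had a higher mean, beside 46.5% of all genes, and 0 were called. With the block 1 was called higher, beside 9.34% of all genes. That gene, Pcdha4, measured 8.88, 8.87 and 8.97 in Cugbp1 shRNA neurons, against 8.70, 8.67 and 8.64 in control neurons (difference 0.24, SE 0.082, adjusted p = 0.170, 0.0394 with the block), with all Cugbp1 shRNA arrays above all control arrays. Pcdha4 is also named on 16 of the 24 alpha probe sets that several genes share, so its own probe sets may also read exons that the cluster shares. Pcdha5 had a difference of 0.040 (SE 0.084). Of the 13 measured gamma genes, 6 had a higher and 7 a lower mean, with a median of -0.0026. With probe-set means 10 were higher and 3 lower, with a median of 0.087, and the sign of the median also turned with quantile normalization (0.0014) and when single arrays were left out (-0.028 to 0.037). None was called, and with the block 2 were called higher and 1 lower, beside 9.34% and 13.9% of all genes. Pcdhgb4 and Pcdhgb5 were the gamma genes called higher with the block. Pcdhgb4 measured 7.92, 8.17 and 8.03 in Cugbp1 shRNA neurons, against 7.67, 7.72 and 7.83 in control neurons (difference 0.30, SE 0.10, adjusted p = 0.163, 0.0304 with the block). Pcdhgb5 measured 9.61, 9.81 and 9.71 in Cugbp1 shRNA neurons, against 9.24, 9.51 and 9.49 in control neurons (difference 0.30, SE 0.11, adjusted p = 0.193, 0.0201 with the block). All Cugbp1 shRNA arrays lay above all control arrays for both genes. Pcdhga5, the gamma gene called lower with the block, measured 9.01, 8.99 and 9.02 in Cugbp1 shRNA neurons, against 9.13, 9.36 and 9.36 in control neurons (difference -0.27, SE 0.096, adjusted p = 0.176, 0.0411 with the block). Its Cugbp1 shRNA arrays all lay below its control arrays. Pcdhgb6 had a difference of 0.15 (SE 0.11) and Pcdhgb1 of -0.10 (SE 0.095). Split by type after the values were seen, and so with no test, 5 of 7 B-type gamma genes had a higher mean with a median of 0.17, and 1 of 6 A-type genes with a median of -0.029.

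The 13 family genes with 1 or 2 kept probe sets were fitted among 19964 genes with at least 1. None was called, where 1.31% of all genes were (0.336% higher and 0.972% lower), 1 had an unadjusted p under 0.05, and 1 was called lower with the block, where 11.9% of all genes were called (4.23% higher and 7.65% lower). That gene, Pcdhb8, measured 8.57, 8.76 and 8.78 in Cugbp1 shRNA neurons, against 8.84, 9.02 and 9.09 in control neurons (difference -0.28, SE 0.11, adjusted p = 0.282, 0.0438 with the block). Of the 13, 5 had a higher and 8 a lower mean, between -0.32 and 0.41. Over the 72 measured genes the SD within a group ran between 0.0086 and 0.51 with Cugbp1 shRNA, with a median of 0.12, and between 0.018 and 0.50 in control neurons, with a median of 0.13. Replicate 1 was the lowest array of both groups for 30 of the 72 genes, replicate 2 for 2 and replicate 3 for 19.

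The arrays also read single exon stretches, so the 861 kept probe sets of the family were each tested. At this level limma called 0 of 597778 probe sets on the array (0%) and 0 of the family's, with or without the block. Of the family's, 103 had an unadjusted p under 0.05, and the smallest adjusted p was 0.441. The mean was lower with Cugbp1 shRNA for 502, 58.3%, and higher for 359. Over all kept probe sets, most of them without a single listed gene, 5.92% had an unadjusted p under 0.05 and 48.8% a lower mean. For 16 family genes every kept probe set had a lower mean, and for 5 every one had a higher mean. The share over all genes is not given here, so these counts cannot be set against genes in general.

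A further test asked whether a probe set differed more or less than the rest of its gene, with limma's diffSplice, which takes the spread over all probe sets of a gene. By gene, 0 of 72 family genes were called, where 0.883% of all genes were, 2 had an unadjusted p under 0.05, and 15 were called with the block, where 19.5% of all genes were. By probe set, 1 of 839 in the family was called, where 0.0821% of all were, and 21 with the block, where 2.37% were. The called probe set, 5375287 in the array's numbering, lies in Pcdh10. It measured 7.65, 7.90 and 7.72 in Cugbp1 shRNA neurons, against 8.29, 9.17 and 8.50 in control neurons, where the Pcdh10 gene value lay between 11.31 and 11.50 on all arrays. The groups did not overlap, and control replicate 2 stood above the other control arrays. Relative to the rest of the gene its difference was -0.98 (SE 0.22, adjusted p = 0.0347), while Pcdh10 as a gene had an adjusted p of 0.0511, and 7.25e-05 with the block. The difference between probe set and gene value was also computed on each array, tested with limma and combined by gene. This called 0 of 72 family genes, and Pcdh10 was not called. No calls of single probe sets and no share over all genes are given for it.

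**Figure D4:**
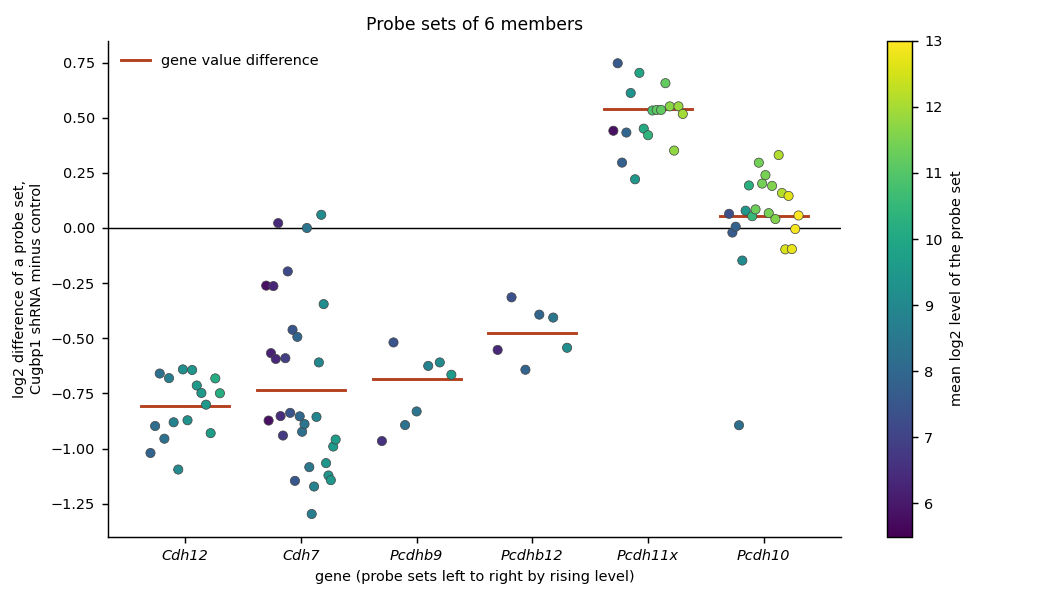
Log2 difference (Cugbp1 shRNA minus control shRNA) of every kept probe set of 6 family genes, 1 column a gene and 1 point a probe set, coloured by its mean log2 level, with the gene's own difference as a bar. All 16 points of Cdh12 lie below 0, all 17 of Pcdh11x lie above 0, and 1 point of Pcdh10 lies near -0.89, below the rest of that gene.

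Genes that act with cadherins were taken from 5 lists, 88 genes of which 81 were measured. None was called by limma, 5 had an unadjusted p under 0.05 with a higher mean and 8 with a lower one, and with the block 7 were called higher and 12 lower. The 19 called with the block are 23.5%, beside 23.2% of all genes, so the partners were called about as often as genes in general. Their median difference was -0.0036. Catenins and actin linkers, the partners of the classical cadherin tail, had 15 of 16 measured, with a median of 0.012 and 1 called higher and 2 lower with the block. The smallest p in that list was that of Vcl (vinculin, an actin linker at junctions), with a difference of -0.43 (SE 0.12, adjusted p = 0.102, 0.0183 with the block). Other superfamily genes such as desmosomal, Fat and Celsr cadherins had 21 of 24 measured, with a median of -0.038 and 3 called higher and 5 lower with the block. That list includes Cdhr1 and Cdhr2, which are also the family genes Pcdh21 and Pcdh24. Its smallest p was that of Dsc3 (a desmosomal cadherin), with 6.51, 7.07 and 6.71 in Cugbp1 shRNA neurons, against 7.99, 7.57 and 7.36 in control neurons (difference -0.88, SE 0.20, adjusted p = 0.0574, 0.0217 with the block). Genes of protocadherin promoter choice, which are CTCF, cohesin and chromatin factors, had 17 of 18 measured, with a median of -0.012 and 1 called lower with the block, Wiz (difference -0.30, SE 0.080, adjusted p = 0.0928, 0.0156 with the block). Proteases that shed cadherins had 12 of 14 measured, with a median of -0.040 and 1 called higher and 2 lower with the block. Among them Aph1b, a gamma-secretase subunit, had a difference of -0.36 (SE 0.11, adjusted p = 0.144, 0.00932 with the block). The WAVE complex and kinases at protocadherin tails had 16 of 16 measured, with a median of 0.024 and 2 called higher and 2 lower with the block. Cyfip2, a WAVE complex subunit, had a difference of -0.31 (SE 0.087, adjusted p = 0.0988, 0.0145 with the block).

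The arrays agreed closely, with correlations of gene values between 0.971 and 0.995, and their medians lay between 5.74 and 5.78. Pan-neuronal markers were measured on all arrays, with gene values between 12.13 and 13.21, and no marker is at 0 on this scale. Several family genes are also expressed outside neurons. Of the markers of 8 cell types, 1 was called, where 3.94% of all genes were: Pdgfrb, 1 of 6 mural cell markers, fell by 0.80 (adjusted p = 0.0414, 0.00317 with the block). With the block, Eomes (progenitors, adjusted p = 0.0253), Aldh1l1 (astrocytes, 0.0411) and C1qa (microglia, 0.0362) were called lower too, with differences of -0.61, -0.21 and -0.23. They are 1 of 7 progenitor, 1 of 8 astrocyte and 1 of 8 microglia markers, where 23.2% of all genes were called with the block. The summed linear level of the mural cell markers was 1274 to 1450 with Cugbp1 shRNA and 1336 to 1553 in control neurons. The progenitor markers had sums of 17227 to 17741 with Cugbp1 shRNA and 16998 to 18560 in control neurons, with 0 of 7 called. The astrocyte markers had sums of 9130 to 10028 with Cugbp1 shRNA and 9225 to 10639 in control neurons, with 0 of 8 called. Microglia markers had sums of 754 to 976 with Cugbp1 shRNA and 798 to 1028 in control neurons, with 0 of 8 called. Oligodendrocyte lineage markers had sums of 7478 to 7901 with Cugbp1 shRNA and 6354 to 7719 in control neurons, with 0 of 6 called. Whether these cells play a part in the differences of the family was not tested.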

How the data were processed

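Total RNA of 6 cultures, 100 ng each, was read on Affymetrix mouse exon arrays. The deposited values are log2 signals per exon probe set, made by the authors with RMA in Affymetrix Expression Console on genome build mm9, per the submitters' processing notes. RMA equalises the arrays, so a shift of all genes cannot be seen, and the number of arrays limits the precision.

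From the 1195555 probe sets, those with a mean log2 value of at least the median (5.73) were kept. Of all probe sets, 317245 had 1 gene in the platform annotation, 6323 had several and 871987 were not listed. Genes with at least 3 kept single-gene probe sets were summarised by Tukey's median polish. Of 22716 annotated symbols, 18248 were current in RefSeq, 4397 were updated and 71 stayed as given. Groups were compared with limma 3.58.1 (lmFit and eBayes, R 4.3.3) over 16532 genes, with Benjamini-Hochberg adjustment. Log2 differences are Cugbp1 shRNA minus control, and no order of levels is drawn between genes, since probes differ in brightness. The diffSplice function of limma tested exon usage. The scripts were tested on simulated data.

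The labels number replicates 2 and 3 of each group, and the array without a number was taken as replicate 1. Deviations from the group means correlated within each number over all genes (0.76, 0.50 and 0.71). Over the 72 measured family genes these correlations were 0.78, 0.24 and 0.60. No correlation between unlike numbers is given here, so a pairing of replicates 2 and 3 by number was not tested. A fit with the replicate block stands beside the results, and its calls rest on this pairing. The rule for named genes takes the genes called, the 12 family genes with the smallest p, the 2 of each subfamily with the highest mean value, the smallest p of each partner list and the probe sets called for exon usage. Genes called only with the block and outside that rule (Cdh20, Pcdh19, Pcdhb6, Pcdhb16, Pcdhga5, Pcdhgb4, Pcdhgb5), Pcdh1 and Tardbp were chosen after their values were seen. The family and the lists were chosen with earlier results of these data known. Alternatives were the block, the filter, the summary, scaling, a trended robust fit, each array left out, and replicates 2 and 3 alone, the last added after the data were seen. Protein sequences were not used here.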

Additional observations from a re-analysis of the deposited data

How the results depend on the processing

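Of the family genes, 3 were called as reported (Cdh12, Pcdhb12 and Pcdhb9), 23 with the replicate block, 5 with the filter at the 75th percentile, 5 with a trended robust fit and 1 each with no filter on low values, with at least 1 probe set per gene and with median centring. With the filter at the 75th percentile that is 7.58% of the family, beside 8.16% of all genes, and with the trended robust fit 6.94%, beside 6.60%. With no filter it is 1.33%, beside 2.48%, with at least 1 probe set 1.18%, beside 1.31%, and with median centring 1.39%, beside 3.28%. The 75th percentile filter called Cdh12, Pcdh18, Pcdhb12, Pcdhb2 and Pcdhb7, and the trended robust fit Cdh12, Cdh7, Pcdh18, Pcdhb12 and Pcdhb9. The count was 3 with probe-set means, with quantile normalization and with replicates 2 and 3 only, the last chosen after seeing the data. Quantile normalization called the same genes as reported. Probe-set means called Cdh12, Cdh7 and Pcdhb9. Replicates 2 and 3 only called Cdh12, Cdh4 and Cdh7, of which 1 was called as reported. Leaving out 1 array at a time gave 0 calls in each of the 6 fits, with a smallest adjusted p in the family of 0.0509 to 0.170. Over all genes such fits called 0 to 271, where 652 were called with all 6 arrays. Cdh12 was called under each of the other settings and under none that left out 1 array. With all arrays, Pcdhb12 missed the threshold with no filter (adjusted p = 0.0503), at least 1 probe set (0.0724), probe-set means (0.0560) and median centring (0.0517), and Pcdhb9 with no filter (0.0526), the 75th percentile (0.0506), at least 1 probe set (0.0771) and median centring (0.0521). Partner genes called were 0 of 81 as reported, beside 3.94% of all genes, and 19 of 81 with the block, beside 23.2%. They were 2 of 77 with the filter at the 75th percentile, beside 8.16% of all genes, and 3 of 81 with a trended robust fit, beside 6.60%. Exon usage called 0 family genes as reported and 15 with the block, beside 0.883% and 19.5% of all genes. With no filter it called 1 (Pcdh10). The shares of all genes for exon usage with no filter or with an array left out are not given here. Leaving out 1 array gave 0 to 4 genes: Pcdh10, Cdh10, Cdh2 and Cdh26 without control replicate 1, and Pcdh10 alone without control replicate 3.

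Among the 27 family genes followed through every setting, signs turned for 4, whose 95% intervals without the block held both signs. Cdh16 was 0.11 with the filter at the 75th percentile. Cdh8 was 0.019 with probe-set means, 0.020 with replicates 2 and 3 only and 0.038 without control replicate 1 (-0.23 without control replicate 3). Pcdhb20 was 0.015 with the 75th percentile, 0.050 without Cugbp1 shRNA replicate 3 and 0.018 without control replicate 1 (-0.046 without control replicate 3). Cdh13 was 0.038 with probe-set means, 0.0063 with quantile normalization, 0.043 with replicates 2 and 3 only, 0.014 without Cugbp1 shRNA replicate 1 and 0.0034 without control replicate 1 (-0.036 without Cugbp1 shRNA replicate 3). The cause was not tested, beyond the fewer arrays or genes that some settings hold by construction. The beta genes with a lower mean were 18 of 20 as deposited and with median centring, 17 of 20 with quantile normalization, no filter or probe-set means, 16 of 20 with replicates 2 and 3 only and 14 of 19 with the filter at the 75th percentile. The 13 family genes with 1 or 2 probe sets above the filter were of different kinds. Some lost probe sets to low signal, such as Cdh19, which kept 2 of 15. Others, such as Pcdha1 and Pcdhga2, had 2 single-gene probe sets in the annotation and kept 2 of 2.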

Other observations

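The probe sets that the annotation gives to several genes were not used for any gene value, and 54 of them name clustered protocadherins. All 54 passed the filter, 33 had a lower and 21 a higher mean with Cugbp1 shRNA, and limma called 0 of them with or without the replicate block (smallest adjusted p 0.743, with 2 at an unadjusted p under 0.05). Their median log2 difference was -0.075, between -0.54 and 0.46. The 30 gamma probe sets, all of which name Pcdhga12, had a median of -0.14, with 20 lower, and the 24 alpha probe sets a median of -0.023, with 13 lower. Beside them, the 13 measured gamma genes had a median of -0.0026 and the 3 alpha genes a median of 0.040.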
